A study of Mus musculus with 2 samples.

Results

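EHMT2, also called G9a, was mapped by ChIP-exo in mouse embryonic stem cells (mESCs), and 303 of the 12556 peaks in the deposited list had their summit at the promoter of a protein-coding gene (2.41%, 95% Wilson interval 2.16 to 2.697%). Promoters were taken, on the strand of the gene, as the 2.5 kb before and the 0.5 kb after the transcription start site (TSS) of each protein_coding gene record in GENCODE vM21. Peaks on chromosomes 1 to 19 and X were used, and each was assigned to the nearest such TSS. The 303 peaks were assigned to 301 of 21755 protein-coding genes (1.38%), because *Gm36079* and *Gm10382* each had 2. Each peak is named after its gene below, which states position and not regulation.

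The cells were BL6/129 hybrid mESCs of the EHMT2-dTAG-mcherry line, grown on feeders in serum with LIF. Their *Ehmt2* alleles carried the degron tag FKBP12 F36V, HA tags and an mCherry reporter in place of the stop codon, and the line derives from single clones of KH2 cells. The only group was treated with the solvent DMSO for 24 h, so that tagged EHMT2 was present, and it comprised 2 replicate libraries of 10 M cells each, crosslinked with 1% formaldehyde. ChIP-exo trims immunoprecipitated DNA with an exonuclease up to the crosslinked protein, and the antibody here was against HA. Libraries of a control antibody and of EHMT2-depleted cells were not analysed here. The replicates were merged before peaks were called, so no value below has a replicate error, and all intervals cover counting error over peaks or genes only. Depth per library is unknown, and the number of fragments at each summit was recovered from the deposited fold and p-value.

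EHMT2 works with its partner EHMT1 to place methyl groups on lysine 9 of histone H3, and the dimethylated form, H3K9me2, marks transcriptionally silent chromatin. EHMT2 does not recognise a DNA sequence itself and is brought to chromatin by DNA-binding proteins and their partners. In mESCs it is known for repressing germline genes and for limiting transcription of transposable elements. Many mammalian promoters lie in CpG islands, which are stretches rich in the dinucleotide CG, whereas the promoters of receptor genes of the nose are mostly CpG-poor.

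The promoter peaks were of 2 kinds, which are shown by sequence first and divided by repeat content below. The first kind lay mostly outside repeated sequence, and most of its summits were in sequence that occurs once in the genome. The following stretches are centred on the summits of 3 strong peaks of this kind and of a pair at germline genes, read on the strand of the gene in GRCm38.p6, with each CG in capitals. They lie at chr9:105053184-105053284 (+), chr7:62420204-62420304 (-), chr13:3918143-3918243 (-), chr14:56402666-56402766 (+) and chr2:178407406-178407506 (-).
Mrpl3: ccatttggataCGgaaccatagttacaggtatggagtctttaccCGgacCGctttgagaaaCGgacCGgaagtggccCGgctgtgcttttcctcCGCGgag
Mkrn3: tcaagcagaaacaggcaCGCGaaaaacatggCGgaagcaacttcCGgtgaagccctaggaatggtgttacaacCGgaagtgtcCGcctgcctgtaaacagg
Net1: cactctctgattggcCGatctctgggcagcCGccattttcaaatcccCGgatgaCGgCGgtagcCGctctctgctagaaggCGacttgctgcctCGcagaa
Rnf17: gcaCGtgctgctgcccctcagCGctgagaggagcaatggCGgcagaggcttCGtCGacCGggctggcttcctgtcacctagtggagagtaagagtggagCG
Sycp2: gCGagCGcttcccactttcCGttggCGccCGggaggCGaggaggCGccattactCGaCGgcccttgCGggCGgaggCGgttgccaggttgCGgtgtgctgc
These windows held between 6 and 13 CG dinucleotides, the most at *Sycp2*, and none of their bases was soft-masked. They are examples, and strong unique peaks with fewer CG are not shown, among them *Ahi1*, with 5, and *Zfp11*, with 3. The pair at germline genes rested on only 6 fragments each. Another germline gene with a unique summit and 6 fragments, *Msh4*, is not shown either. Its GC content around the summit was 43.3%, against 63.2% at *Rnf17* and 70.1% at *Sycp2*.

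The second kind lay in repeated sequence. The 4 promoter peaks with the highest significance, at *Gm13040*, *Mtln*, *Olfr1504* and *Reg2*, shared an identical run of 101 bases within 150 bp of their summits. It is shown in capitals for 3 of them, each read on the strand on which the run reads the same way, at chr4:143534033-143534177 (+), chr2:127793537-127793707 (-) and chr6:78395771-78395941 (-).
Gm13040: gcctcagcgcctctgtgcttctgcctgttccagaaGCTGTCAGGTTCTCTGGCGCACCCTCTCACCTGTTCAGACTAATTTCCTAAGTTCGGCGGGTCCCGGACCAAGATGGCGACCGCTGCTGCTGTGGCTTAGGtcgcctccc
Mtln: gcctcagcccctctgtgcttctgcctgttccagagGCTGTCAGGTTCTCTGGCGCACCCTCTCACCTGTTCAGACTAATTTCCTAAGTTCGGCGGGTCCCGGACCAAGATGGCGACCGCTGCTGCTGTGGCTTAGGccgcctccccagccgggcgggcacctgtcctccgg
Reg2: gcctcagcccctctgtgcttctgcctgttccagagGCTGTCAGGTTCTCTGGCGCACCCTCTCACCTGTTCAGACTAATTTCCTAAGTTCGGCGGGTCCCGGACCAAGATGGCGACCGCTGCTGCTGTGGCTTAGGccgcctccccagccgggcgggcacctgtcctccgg
The run was present around 7 of the 20 promoter summits of the largest sequence family and around none of the other 283 promoter summits. It was found at 605 of all 6252 peaks of that family (9.68%). Families join peaks by the sequence around their summits, and the run was taken from promoter peaks of this family. These counts were thus partly fixed by that choice. The run followed the direction of the gene at 6 of the 7 promoters, and *Reg2* was the exception. The reference sequence carries no element names, so the repeat is not named here.

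Peaks were divided by the share of their bases that is soft-masked in the assembly, that is, written in lower case as repeated sequence. Of the 303 promoter peaks, 69 were soft-masked over at least 50% of their bases and are called repeat peaks (22.8%, 18.4 to 27.8%). The other 234 are called repeat-poor, and 125 promoter peaks held no soft-masked base at all. Among the 369 peaks at promoters of noncoding genes and pseudogenes, 72.9% were repeat peaks (68.1 to 77.2%), and among the 11869 peaks outside promoters 83.1% were (82.4 to 83.8%). The interval of protein-coding promoters lay below both others. By bases, 38.6% of protein-coding promoter peak sequence was soft-masked, against 90.4% outside promoters. All protein-coding promoter windows were soft-masked over a mean of 23.9% of their bases.

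A summit was called unique when its central 50 bp occurred once in the assembly on either strand. This held for 224 promoter peaks (73.9%, 68.7 to 78.5%), compared with 23.6% at noncoding and pseudogene promoters (19.5 to 28.2%) and 17.5% outside promoters (16.9 to 18.2%). Being repeat-poor and being unique overlapped in 209 peaks. The remaining unique summits comprised 15 repeat peaks, among them *Pbk*. Of the promoter summits with copies, 31 had 2 to 10, 19 had 11 to 100, 18 had more than 100 but at most 1000, and 11 had over 1000, up to 3942. Reads with several equally good sites were written by the authors at 1 random site, so fragments at a summit with copies may stem from another copy.

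**Figure D1:**
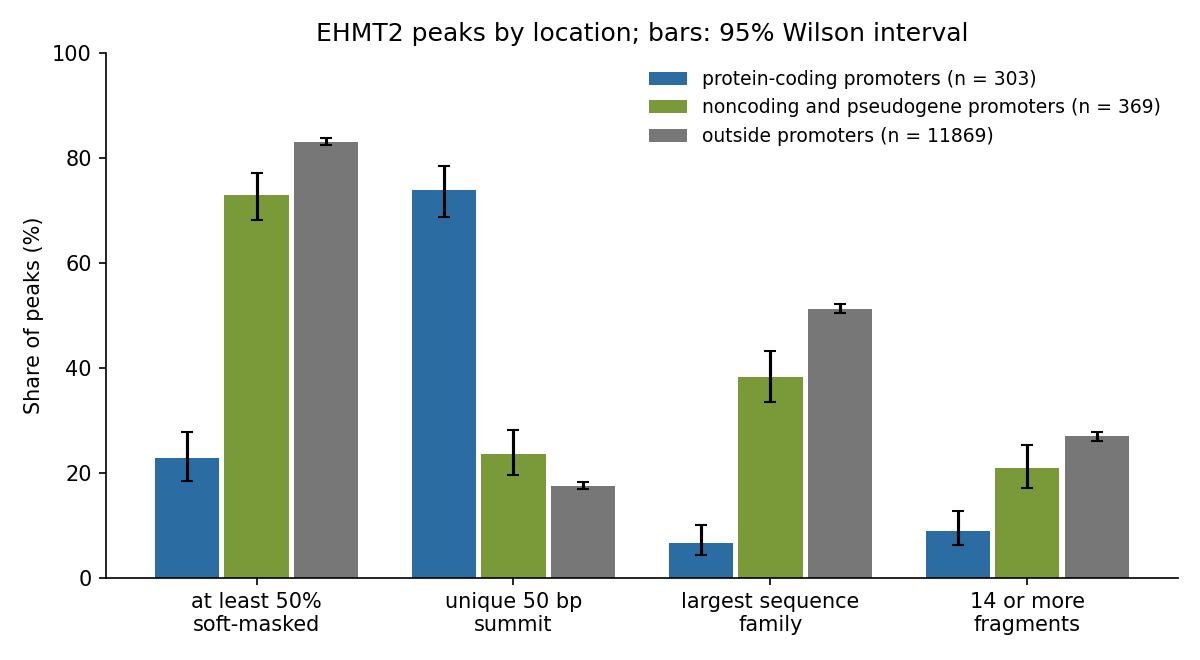
Share of EHMT2 peaks (%, bars, with 95% Wilson intervals) that were at least 50% soft-masked, had a unique 50 bp summit, belonged to the largest sequence family or had 14 or more fragments at the summit, for 303 peaks at protein-coding promoters, 369 at noncoding and pseudogene promoters and 11869 outside promoters. Protein-coding promoters had the lowest repeat share (22.8%) and the highest unique share (73.9%).

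The kinds differed in where they lay. Repeat-poor summits gathered at the TSS, with a median position of -144 bp (95% interval of the median -191 to -71) and with 183 of 234 within 500 bp of it (78.2%, 72.5 to 83.0%). The fullest bins of 250 bp were the one just downstream of the TSS, with 70 repeat-poor summits, and the one just upstream, with 60. Repeat summits lay at a median of -1577 bp (-1927 to -1330), and 10 of 69 were within 500 bp of the TSS (14.5%, 8.07 to 24.7%). More than 1 kb upstream lay 49 of the 69 repeat summits but 30 of the 234 repeat-poor ones. Over all 303 peaks the median was -235 bp (-329 to -175). Since the window reaches further upstream than downstream, its own centre is upstream of the TSS for either kind. Soft-masking, which defines the kinds, also falls towards the TSS in promoters at large. Over all genes its mean was 32.3% for the bin from -2500 to -2000 bp and 9.65% for the bin from 0 to 500 bp. How much of the difference in position goes with this gradient was not tested.

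**Figure D2:**
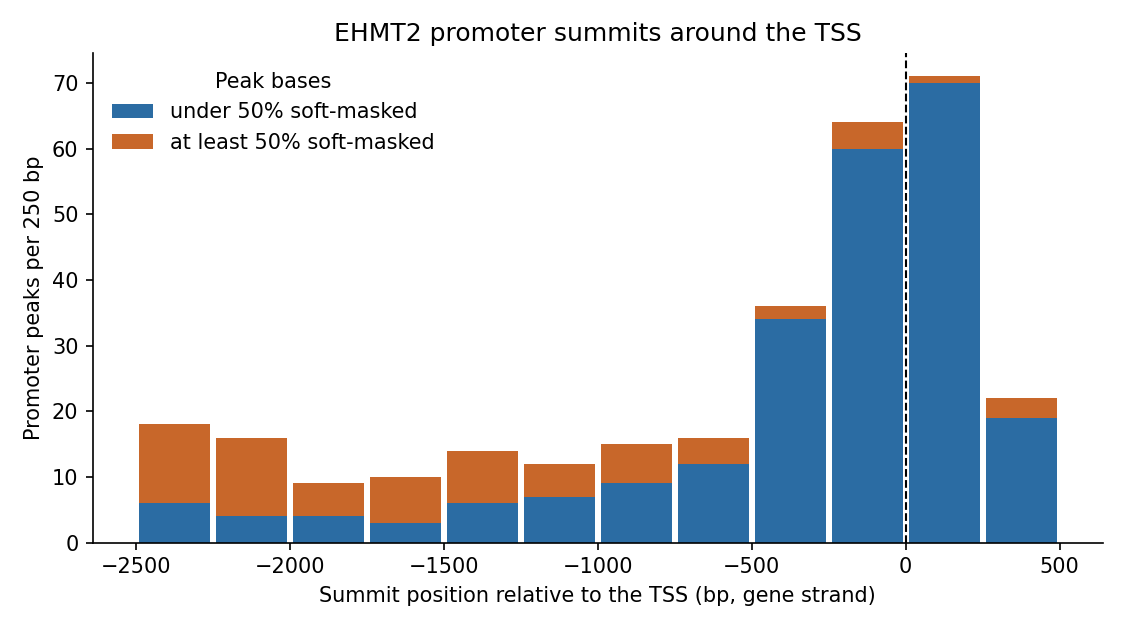
Number of promoter peaks per 250 bp of summit position relative to the TSS (bp, gene strand, dashed line at 0), stacked by peaks under 50% and at least 50% soft-masked. The bin just downstream of the TSS holds 71 peaks, of which 1 is a repeat peak, whereas the bin farthest upstream holds 18, of which 12 are.

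By annotation at the summit, 28 repeat-poor summits lay in a coding exon, 44 in an untranslated exon, 19 in another exon, 47 in an intron and 96 between genes. Of the 69 repeat summits, 56 lay between genes. The summits closest to a TSS among unique, repeat-poor peaks were those of *Cplx3*, a complexin, at -4 bp and of *Mrpl3* at -5 bp. They were followed by *Timm22*, a translocase of the inner mitochondrial membrane, at 9 bp, *Zfp110* at 12 bp and *Etv6*, an ETS-family repressor, at -14 bp. Apart from *Mrpl3*, each of these had 5 fragments and a fold between 4.12 and 4.42.

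Some summits could not be given to a single gene. A summit lay in the promoter windows of 2 or more protein-coding genes for 29 peaks, and of 3 for 2 of these. *Zdhhc6* and *Vti1a* share a window and each had a peak of its own, at -88 and 165 bp. Other shared promoters were those of *Slc39a9* with *Erh*, *Mrpl32* with *Psma2* and *Polr2b* with *Noa1*. At the edges of the window, *Amdhd2* at -2500 bp (fold 5.14, 8 fragments) was the last included upstream and *Rnf13* at -2504 bp (6.73, 9 fragments) the first left out. Downstream, *Krtap5-3* at 494 bp (7.78, 11 fragments) was included and *Tmcc2* at 540 bp (4.27, 5 fragments) was not. The outermost 500 bp upstream held 34 members, and the 500 bp beyond it held 32 further peaks.

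Promoter peaks were mostly weak. The strength given is the authors' fold, which is the summit pileup over its background after the same constant is added to both. At a low background the fold is therefore smaller than the plain ratio and largely follows the fragment count. The median fold was 4.60 (95% interval of the median 4.45 to 4.89) and the median summit held 6 fragments, with a range of 4 to 72. Outside promoters the median fold was 5.25 (5.22 to 5.28) and the median summit held 8 fragments. Repeat-poor promoter peaks had a median fold of 4.46 (4.32 to 4.77), close to 4.54 for the 2004 repeat-poor peaks outside promoters. Repeat promoter peaks had a median fold of 5.25 (4.77 to 5.77), with 18 of 69 at 14 or more fragments (26.1%, 17.2 to 37.5%) against 9 of 234 repeat-poor ones (3.85%, 2.04 to 7.15%). At the other end, 157 repeat-poor promoter peaks rested on 6 fragments or fewer (67.1%), and at that depth a single peak is not firmly established.

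The most significant promoter peak was at *Gm13040*, a predicted gene, with 72 fragments and a fold of 18.3 at -1927 bp. *Mtln*, which encodes the mitochondrial micropeptide mitoregulin, had 54 fragments and a fold of 12.8 at -1189 bp. *Olfr1504*, an olfactory receptor, had 49 fragments and a fold of 11.4 at -2067 bp. *Reg2*, a regenerating islet-derived gene of the pancreas, had 50 fragments and a fold of 9.94 and was the only one of the family with a summit downstream of the TSS, at 288 bp. These 4 summits were wholly soft-masked and their 50 bp summit sequences occurred between 843 and 2312 times in the assembly. *Sf3b5*, a subunit of the splicing complex SF3b (43 fragments), *Lipo3*, a lipase gene (36 fragments), and *Rras2*, a small GTPase (32 fragments), were of the same family.

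That family held 20 promoter peaks (6.60%, 4.31 to 9.97%), against 51.3% of peaks outside promoters (50.4 to 52.2%) and 38.2% at noncoding and pseudogene promoters (33.4 to 43.3%). Its promoter members had a median fold of 9.21, between 3.72 and 18.3, and a median of 26.5 fragments. The peaks were broad, with a median width of 664.5 bp against 164 bp over all promoter peaks. Their summits had a median GC content of 62.4%. All but 2 of the 20 lay more than 1 kb upstream of the TSS, the exceptions being *Lipo3* at -781 bp and *Reg2*. The second largest family, of 1164 peaks, had 6 promoter members.

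Unique summits included a few strong peaks. *Xkr6*, a member of the XK-related family, was the strongest, with 33 fragments and a fold of 14.4 at -242 bp. *Mrpl3*, a protein of the large mitochondrial ribosomal subunit, had 20 fragments and a fold of 11.8. *Mkrn3*, an imprinted gene expressed from the paternal allele, had 18 fragments and a fold of 9.17 at -115 bp. *Ahi1*, which encodes the ciliary protein jouberin, had 16 fragments and a fold of 9.54 at -254 bp. All 4 lay within 500 bp of the TSS, but *Pbk*, with a higher fold than *Mkrn3* and *Ahi1*, lay at -1330 bp. The upper quartile of unique promoter peaks was a fold of 5.29 and 7 fragments. These genes were named for their high fold, so their place above it was given by the choice.

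*Pbk*, a mitotic kinase, had a fold of 9.82 and 15 fragments at -1330 bp in a peak that was 87.3% soft-masked. *Zfp11*, a zinc-finger gene, had a fold of 8.28 at -214 bp, *Slc39a9*, a zinc transporter, 8.26 at 172 bp and *Net1*, an exchange factor for RhoA, 7.82 at 27 bp. These rested on 10 to 12 fragments.

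**Figure D3:**
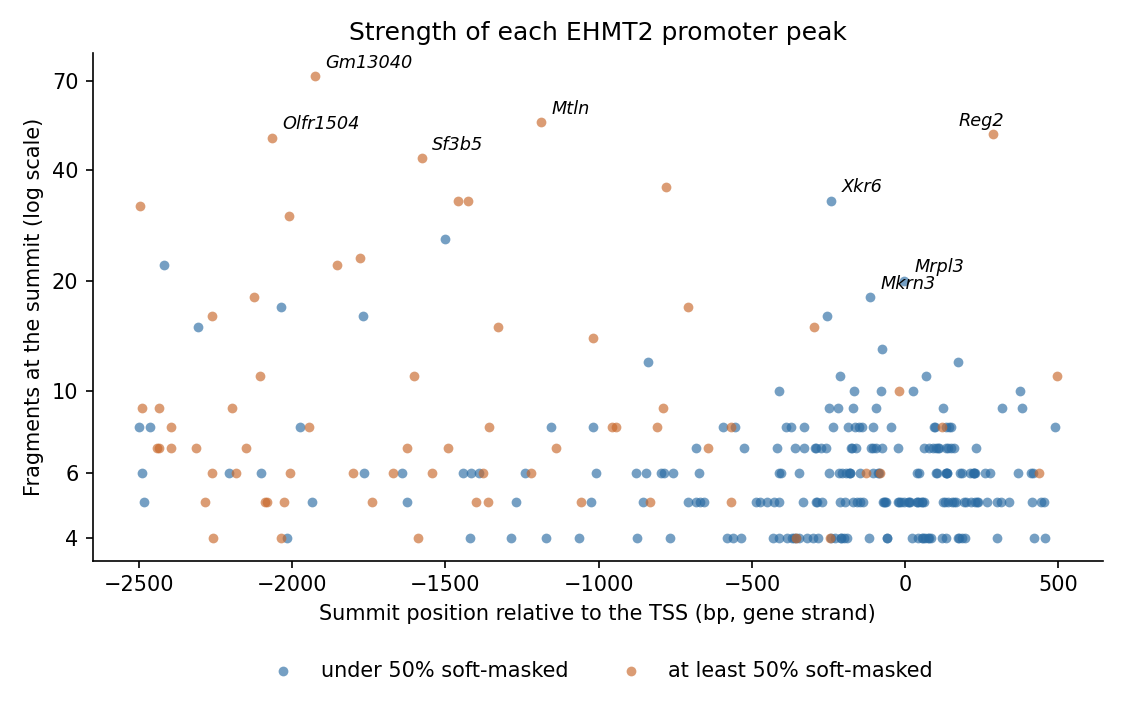
Fragments at the summit (log scale) of each of the 303 promoter peaks against summit position relative to the TSS (bp, gene strand), coloured by whether the peak was at least 50% soft-masked. Most points near the TSS have 4 to 10 fragments, and the highest point is the upstream repeat peak of *Gm13040* with 72. *Reg2*, a repeat peak with 50, lies downstream of the TSS, and *Xkr6*, with 33, is not a repeat peak.

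Among the genes with a pair of summits, *Gm36079* had no repeat peak, but both of its summits had copies elsewhere. They had 26 and 17 fragments, with 3 and 20 copies, and lay over a local background of about 5 fragments, which gave low folds of 4.53 and 2.97. In all, 25 repeat-poor promoter summits had copies, up to 34 at *Slc51a*, and the gene such a peak belongs to is uncertain.

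The CpG content of the promoter differed between the kinds. A promoter was called CpG-rich when the 500 bp on either side of its TSS had a CpG observed/expected ratio of at least 0.6 and a GC content of at least 50%. This held for 154 of 232 genes with a repeat-poor peak (66.4%, 60.1 to 72.1%), for 9741 of all 21755 genes (44.8%, 44.1 to 45.4%) and for 22 of 69 genes with a repeat peak (31.9%, 22.1 to 43.6%). Seen from the genes, 1.38% of all protein-coding genes had a promoter peak. A repeat-poor peak was found at 1.58% of CpG-rich promoters (1.35 to 1.85%) and 0.649% of the others (0.521 to 0.809%). For repeat peaks these shares were 0.226% (0.149 to 0.342%) and 0.391% (0.294 to 0.520%).

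The share with a repeat-poor peak was lowest, at 0.0572%, where the CpG ratio was under 0.1, and highest, at 1.96% (1.49 to 2.57%), where it was 0.6 to 0.7. The share was 1.30% (0.835 to 2.03%) at ratios of 0.9 to 1, an interval that overlaps the one at 0.6 to 0.7. By depth, the CpG-rich share was 71.4% among the 77 repeat-poor peaks with 7 fragments or more and 64.3% among the 157 with fewer.

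**Figure D4:**
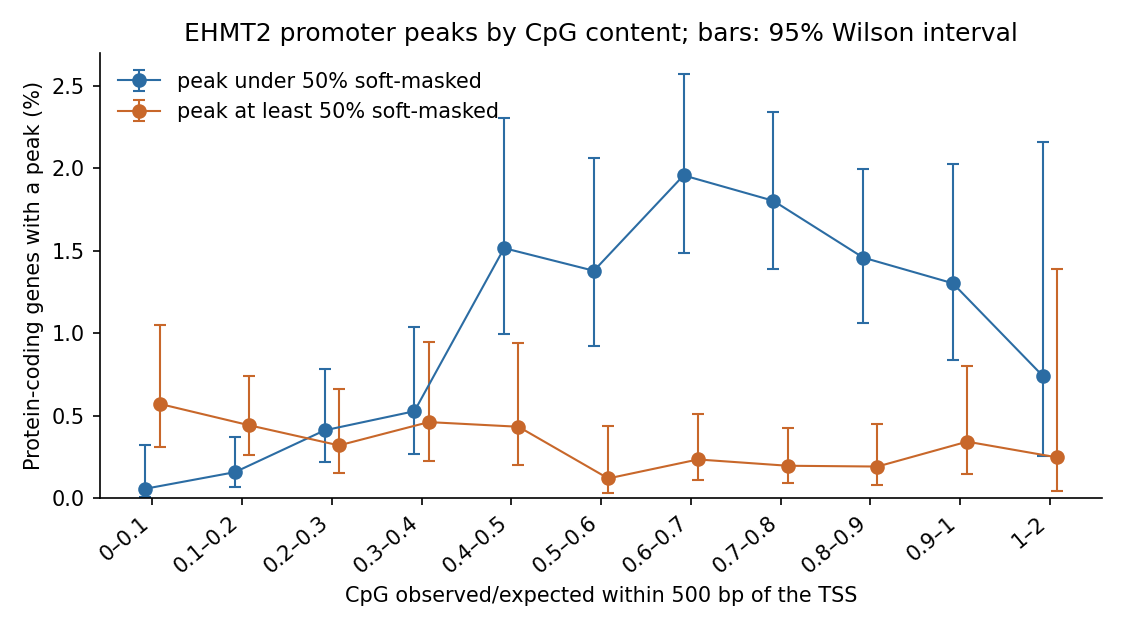
Share of protein-coding genes with a promoter peak (%, with 95% Wilson intervals) by CpG observed/expected ratio within 500 bp of the TSS, for peaks under 50% and at least 50% soft-masked. The repeat-poor share goes from 0.0572% in the lowest bin to 1.96% at 0.6 to 0.7, whereas repeat peaks stay below 0.6% in every bin.

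GC content within 100 bp of the summit averaged 54.3% ± 8.96 (SD over 234 peaks) for repeat-poor and 50.9% ± 10.0 (69 peaks) for repeat promoter peaks. Repeat-poor peaks outside promoters had 48.8% ± 7.98. The value depended on position. Repeat-poor summits in the 500 bp downstream of the TSS had 59.4% ± 7.78, where all genes had a mean of 58.0% at the centre of that bin. In the 500 bp upstream they had 52.5% ± 8.23, against 49.96% for all genes. Both means were within 1 SD of the value of all genes, which is the spread of single genes and not the error of a mean. Each value of all genes here was taken at the centre of its bin. Summits lay mostly in the 250 bp nearest the TSS, 70 of 89 downstream and 60 of 94 upstream. All genes had a mean of 58.6% within 100 bp of the TSS. The values are thus not matched for position within a bin, and an excess over all genes was not tested. Further upstream, repeat-poor summits had 48.9% at -1000 to -500 bp, against 44.9% for all genes. At -1500 to -1000 bp the values were 44.1% and 44.2%. At -2000 to -1500 bp they were 52.5% and 44.1%, and at -2500 to -2000 bp 51.1% and 44.0%, on 7 and 10 summits.

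Short motifs of promoter factors were counted on both strands up to 100 bp from the summit in each direction, as a description and not as binding sites. GGGCGG, the core of the GC box, was in 19.7% of repeat-poor promoter windows (15.1 to 25.2%), in 40.3% of windows centred on all TSSs and in 3.94% around repeat-poor summits outside promoters. CCGGAAG, the ETS-type motif, was in 10.3% (6.99 to 14.8%), against 9.68% at all TSSs. It was present at *Mrpl3* and *Mkrn3*. CCAAT was in 25.6% against 28.3%. AAGATGGCG, the YY1-type motif that also lies within the shared run, was in 2.99% of repeat-poor windows (1.46 to 6.04%), 14.5% of repeat windows (10 of 69) and 1.82% of all TSS windows. CACGTG was in 2.99% against 5.72%, GCGGGAA in 4.70% against 4.44%, GCGCATGC in 2.56% against 2.73%, TGACGTCA in 0.855% against 2.03%, ACTACAA in 2.56% against 2.31% and TATAAA in 5.98% against 8.13%. ATGCAAAT, the octamer, was in none of the 234, which allows a share of up to 1.28% when 3 counts are taken as the limit of a count of 0, and in 0.887% of all TSS windows. The TSS windows are centred on the TSS and the summit windows are not, so the shares are not matched for position. They are not matched for CpG content either. At the 9741 CpG-rich TSSs, GGGCGG was in 67.5%, CCGGAAG in 16.6%, GCGGGAA in 7.61% and AAGATGGCG in 3.44%, each above the repeat-poor share. Of the motifs counted, only TATAAA (2.94%) and ACTACAA (2.37%) were below it there.

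Named gene groups were set beside the background of 1.38%. Of 18 lists, 16 had an interval that held this value, and 17 did once genes taken in by symbol alone were left out, a step added after the data were seen. The zinc-finger list as matched had 12 of 467 genes with a promoter peak (2.57%, 1.48 to 4.44%), but it took in *Zbtb8os*, which is named after a neighbouring gene and does not encode a zinc finger. Without it, 11 of 466 genes had a peak (2.36%, 1.32 to 4.18%), an interval that holds the background, and 10 of the 11 were repeat-poor. *Zfp958* had the strongest (17 fragments, fold 8.82, wholly soft-masked), followed by *Zfp11*. *Zfp354b* at 100 bp and *Zfp868* at 79 bp had folds of 5.30 and 5.36, and the others had 4 to 7 fragments. Of 179 genes matched by symbol as ribosomal protein genes, a match that also takes in the S6 kinases named Rps6k, 6 had a peak (3.35%, 1.55 to 7.12%), and without those kinases 6 of 169 did (3.55%, 1.64 to 7.53%). All 6 were repeat-poor with unique summits. Besides *Mrpl3*, these were the cytoplasmic *Rpl8* and *Rps29* and the mitochondrial *Mrpl50*, *Mrpl32* and *Mrpl27*, with 4 to 6 fragments each. Of the 179 promoters in this list, 136 were CpG-rich. Among all CpG-rich promoters 1.81% had a peak (1.56 to 2.09%), a value that both intervals of the list hold.

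Olfactory and vomeronasal receptor genes showed the other kind of peak. Of 1466 genes, 14 had a promoter peak (0.955%, 0.570 to 1.60%), an interval that holds the background of 1.38% for any peak. All 14 were repeat peaks, and this share was above the 0.317% of all protein-coding genes with a repeat peak (0.251 to 0.401%). None of the receptor genes had a repeat-poor peak, against 1.07% of all genes (0.938 to 1.21%). The strongest after *Olfr1504* were *Olfr294* and *Olfr641*, with 33 fragments each, at -1428 and -1458 bp. Only 1 of the 1466 promoters was CpG-rich, and the promoter windows of the list were soft-masked over a mean of 33.9%.

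Of 85 germline and meiosis genes, 3 had a peak (3.53%, 1.21 to 9.87%). These were *Rnf17*, a Tudor-domain gene of spermatogenesis, at 135 bp (fold 5.18), *Sycp2*, a component of the synaptonemal complex, at 229 bp (4.95), and *Msh4*, a meiotic crossover gene, at -878 bp (4.48), with 6 fragments each. Of 65 imprinted genes, *Mkrn3* and *Kcnk9*, a potassium channel gene (fold 4.27 at -1624 bp), had a peak (3.08%, 0.848 to 10.5%). Among 40 genes of H3K9 methylation and silencing, only *Mphosph8*, a subunit of the HUSH silencing complex, had one (7 fragments, fold 5.25, -293 bp).

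Of 67 genes of 2-cell and oocyte clusters, *Pramef8* had a peak (9 fragments, fold 5.79, 382 bp). The list holds named genes only, so peaks at other genes of such clusters would be missed. *Gm13040*, with 72 fragments, is not in the list. Its TSS is at chr4:143535954, and that of *Pramef8* is at chr4:143412426. Whether the 2 genes belong to the same cluster was not tested. Of 188 developmental transcription factors, *Foxf2* had a peak (6 fragments, fold 4.81, -847 bp). *Ndufaf5* and *Ndufb5* were the 2 of 46 mitochondrial complex I genes, with folds of 5.06 and 3.79. Of 113 keratin and keratin-associated genes, *Krtap5-3*, *Krt86* (fold 4.98) and *Krt2* (4.91) had a peak, and of 75 genes in X-linked reproductive clusters, *Mageb18* did, with 4 fragments. No promoter peak was listed for 7 lists. By the same limit of 3 counts, which is lower than the upper Wilson bound, a count of 0 allows a share of up to 10.0% of the 30 pluripotency genes, 5.26% of the 57 clustered protocadherins, 4.48% of the 67 replication-dependent histone genes, 4.92% of the 61 serpins and 2.46% of the 122 cytochrome P450 and UDP-glucuronosyltransferase genes. It allows 8.11% of the 37 killer lectin-like receptor and Skint genes and 4.69% of the 64 defensins.

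Across chromosomes, the share of genes with a promoter peak ranged from 0.422% on chromosome X (4 of 948, 0.164 to 1.08%) to 2.03% on chromosome 13 (17 of 838, 1.27 to 3.22%). The interval of chromosome X lay below the value of 1.38% over all chromosomes. Chromosome X was singled out as the lowest and rests on 4 genes, and copy number was not taken into account. Another peak lay within 10 kb of 24 of the 303 promoter peaks (7.92%, 5.38 to 11.5%) and of 19.2% of peaks outside promoters (18.5 to 19.9%). Among repeat-poor peaks alone the shares were 8.55% at promoters and 8.53% outside.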

How the data were processed

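ChIP-exo against HA was done in 2 DMSO replicates of EHMT2-dTAG mESCs. The authors aligned trimmed reads to mm10 with STAR 2.7.10, writing each read with several best sites once at random. They removed duplicates (Picard 2.26.0) and High Signal Regions, merged the replicates and called peaks with MACS2 2.2.6 without a control, keeping q below 0.05. The deposited list gives fold (a ratio) and −log10 p- and q-values per peak. It holds fewer peaks than the study states.

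Whole-number fragments at each summit were solved from the deposited fold and −log10 p within 0.0001, with a single solution for all 303 promoter peaks. Sequence and soft-masking, whose origin is not stated, came from GRCm38.p6, which has mm10 coordinates. Families joined 300 bp summit sequences aligning over 150 bp at 80% identity (minimap2 2.31-r1302, single linkage). Functions were tested on simulated data. Genes named were the 8 most significant peaks, the 8 unique summits of highest fold, genes with 2 summits, the 5 unique repeat-poor summits closest to a TSS and up to 8 per gene list. Members and lists were chosen with earlier results of these data known. Shares have 95% Wilson intervals, counts of 0 a limit of 3 counts, and medians order-statistic intervals. No test was made, since the list is pooled. Alternatives covered q, TSS, window, peak position, repeat, GC, copy and family settings. A sequence at 1 promoter and the details of 1 further locus are not reported here.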

Additional observations from a re-analysis of the deposited data

How the results depend on the processing

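The 11 quantities were recomputed under 54 settings in all, of which 40 stayed within their interval (counts within 1.5 times). With q of 0.001 or lower, 151 promoter peaks at 150 genes remained, 48.2% of their bases were soft-masked, 29.8% were repeat peaks, 66.2% had a unique summit, 11.3% were in the largest family, the median fold was 5.51 and the median summit held 8 fragments. With q of 0.01 or lower the median fold was 5.04. When promoters were cut to the 1 kb before and after the TSS, 19.9% of bases were soft-masked, 9.16% were repeat peaks, 87.3% had a unique summit and 0.797% were in the largest family (this setting shortens the window upstream and lengthens it downstream). With a 100 bp summit sequence 81.5% were unique, as a longer sequence has fewer exact copies. Counting from every protein-coding transcript gave 396 peaks at 391 genes. No paired analysis was possible because a single merged list was deposited, and for the same reason neither replicate could be left out.

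Most promoter peaks rest on 4 to 8 fragments, so single genes are less certain than the shares. This list was called without a control library, so antibody background cannot be told apart from EHMT2 occupancy in it. The paper reports that HA ChIP-seq signal fell across its EHMT2 peaks after depletion, in libraries that were not analysed here.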
